A study of Mus musculus with 4 samples.

Results

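The testis-specific serine kinases are a small family of protein kinases made almost only in germ cells after meiosis, and Tsks is a substrate of Tssk1 and Tssk2. The genes described are the 5 kinase genes Tssk1, Tssk2, Tssk3, Tssk4 and Tssk6 together with Tsks. They were chosen by name, 6 of the 44509 gene symbols in the deposited table, and all 6 passed the filter on low values that left 19837 genes for testing. RNA was measured in mouse testis in 4 libraries. Of these, 2 came from mice made oligozoospermic with busulfan, an alkylating drug toxic to germ cells that divide. The other 2 came from mice of the same busulfan model that also received Cus-1, a resin glycoside extracted from cuscutae, so busulfan is common to both groups. Per the labels RNA was extracted from 100 mg of testis tissue. No strain, age, dose or time is given, no untreated testis was analysed here, and the labels do not say whether the 2 libraries of a group came from separate animals, so p-values measure only the spread between these libraries. The library titles begin with BPA for the busulfan group and with CUS2 for the Cus-1 group, the treatment text on all 4 samples is the same and names CUS, and the grouping rests on the source label alone.

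In the testis these kinases appear as round spermatids turn into elongated sperm. Tssk1 and Tssk2 bind Tsks at the chromatoid body and the ring around the developing tail, and male mice lacking both kinases are infertile. Tssk6, also called SSTK, is needed for the compaction of sperm chromatin and works with the co-chaperone Tsacc and with HSP90. Tssk4 acts on the outer dense fibre protein Odf2 of the tail, and Tssk3 can be activated by the kinase encoded by Pdpk1.

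Among the kinase genes 2 are near copies that lie in a row, and their sequences bear on how their values can be read. Positions follow GENCODE M21 on mm10, the build named in the submitters' processing notes. Tssk1 has 1 exon on chromosome 16 (17894223 to 17897922, plus strand), and Tssk2 has 1 exon 714 bases further on (17898637 to 17900024, plus strand). Aligned over their coding sequences, 83.5% of the paired bases of Tssk1 and Tssk2 were identical. The longest identical run is shown because fragments that fall inside it cannot be assigned to either gene. It spans 113 bases and lies at coding bases 371 to 483 of both genes, counted from the first base of the start codon, within the part that encodes the kinase domain:
Tssk1 and Tssk2: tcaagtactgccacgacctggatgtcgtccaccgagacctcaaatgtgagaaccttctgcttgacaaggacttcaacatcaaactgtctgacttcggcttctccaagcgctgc
Of all 50-base words in the Tssk2 transcript, 9.34% also occur in Tssk1, and none occurs in another gene of the annotation. Of those in Tssk1, 3.42% occur in Tssk2 and 0.411% in Dgcr2 on the opposite strand. The share for Tssk1 is of its 3700-base GENCODE transcript. How the authors assigned such fragments is not given in the sources used here, so the values of Tssk1 and Tssk2 are uncertain. The shares of words do not give the size of that uncertainty, which also depends on the levels of both genes.

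The stretches just before the start sites of this pair are also alike. RefSeq promoter windows (GRCm38.p6, the assembly of mm10) were found for all 6 genes, and 250 bases before each start were searched on both strands. The RefSeq start is that of GENCODE for Tssk2 and Tssk6 and differs from it for the others. For Tssk1 it is 17894203 rather than 17894223, and the distances below are from the RefSeq start. For Tssk3 it is 129491730 rather than 129491022, for Tssk4 55643651 rather than 55650184 and for Tsks 44929472 rather than 44943204. The windows before these RefSeq starts of Tssk3, Tssk4 and Tsks therefore do not adjoin their GENCODE starts. The last 70 bases before the start are shown for the pair, with the word TGACTTCA, read on either strand, in capitals. Both stretches end at the RefSeq start, at chr16:17894133-17894202 for Tssk1 and chr16:17898567-17898636 for Tssk2, on the plus strand:
Tssk1: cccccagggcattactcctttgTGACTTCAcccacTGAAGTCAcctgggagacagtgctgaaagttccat
Tssk2: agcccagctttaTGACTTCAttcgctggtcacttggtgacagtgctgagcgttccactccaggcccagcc
Tssk1 holds the word at 48 bases before the start and, on the opposite strand, at 35 bases, and Tssk2 holds it at 58 bases. A local alignment of the stretches covered 52 columns, of which 78.8% were identical. TGACTTCA was found in 1.31% of the 32851 promoter windows, 2 or more copies of it in 0.0183%, and in 0 of the other 4 genes. The word was chosen after these promoters were read, so its presence in the pair is a description. The palindrome TGACGTCA, known as the cAMP response element, was in 1.55% of all windows and in 0 of the 6. CCAAT, in 33.8% of all windows, was in those of Tssk3 and Tssk4, and TATAAA, in 12.4% of all windows, in 0 of the 6.

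The Cus-1 libraries were unlike each other: Cus-1 1 stood far above the other 3 in the members and in spermatid genes, while Cus-1 2 lay nearer to the busulfan libraries. Each of the 6 genes was nevertheless higher in Cus-1 1 and Cus-1 2 than in either busulfan library, although on values centred on round spermatid genes this held for 0 of the 6, and the difference turned slightly negative for Tssk1, Tssk3 and Tssk4. Groups stood apart in this direction in 36.6% of all tested genes. The log2 fold change (busulfan plus Cus-1 minus busulfan, of FPKM + 1, which understates changes at low values) ran from 0.97 for Tssk4 to 1.37 for Tssk6. Its median over the 6 genes was 1.19, against 0.04 over all tested genes, 52.4% of which were above 0. No member passed the threshold of 0.05 with limma after Benjamini-Hochberg adjustment over all tested genes (adjusted p 0.159 to 0.217), nor did any of the 19837 genes (0%). At an unadjusted limma p under 0.05, 5 of the 6 (all but Tssk4) were higher, and so were 18.03% of all tested genes. None of the 6 was lower at that threshold, against 9.96% of all tested genes.

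Ranked by fold change over all tested genes, the 6 lay between Tssk4, above 91.6% of genes, and Tssk6, above 98.2%. Their summed level was 75.9 and 99.97 FPKM (fragments per kilobase of gene, scaled to mapped fragments) in the busulfan libraries against 329.8 and 136.8 in the Cus-1 libraries, or 3.75 and 1.56 times the busulfan mean. They were genes of middling to high level: Tssk2 exceeded 68.7% and 77.5% of tested genes in the busulfan libraries and 93.0% and 83.2% in the Cus-1 libraries, and Tssk1 exceeded 42.6% and 48.9% against 70.8% and 54.9%.

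Tssk1 and Tssk2 are the pair whose products bind Tsks. Tssk2 measured 19.4 and 29.0 FPKM in the busulfan libraries against 93.3 and 40.5 in the Cus-1 libraries. Its Cus-1 1 value was 3.85 times the busulfan mean and its Cus-1 2 value 1.68 times that mean. The log2 fold change was 1.34 (SE 0.44, limma adjusted p = 0.159). Tssk1 measured 5.85 and 8.08 FPKM in the busulfan libraries against 22.5 and 10.8 in the Cus-1 libraries. It showed the same order of libraries as Tssk2, lowest in busulfan 1 and highest in Cus-1 1, with a log2 fold change of 1.08 (SE 0.38, adjusted p = 0.166).

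How far Tssk1 lay below Tssk2 depends on the gene length that was used. GENCODE M21 gives Tssk1 3700 bases and RefSeq gives it 1451, a ratio of 2.55, while both give Tssk2 1388 bases. Which lengths lie behind the deposited FPKM is not given in the sources used here, so the level of Tssk1 relative to the other genes is uncertain by that factor. The log2 ratio of Tssk1 to Tssk2 was -1.57 and -1.73 with busulfan and -2.005 and -1.81 with Cus-1. Log2 ratios here and below are of FPKM + 1. If the longer model was used, the shorter one would multiply the FPKM of Tssk1 by 2.55, still below that of Tssk2 in each library. The ratio of its FPKM between libraries is not affected by a length that is the same in all 4 columns.

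Tsks, the substrate, measured 21.5 and 24.8 FPKM in the busulfan libraries against 85.9 and 35.2 in the Cus-1 libraries. The busulfan libraries lay close together, and the Cus-1 libraries lay 2.44-fold apart. The log2 fold change was 1.22 (SE 0.43, limma adjusted p = 0.166). Tsks has 11 exons on chromosome 7 (44943204 to 44958035, plus strand) and shared none of its 50-base words with another gene.

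Tssk6 had the largest fold change of the 6 with all 4 libraries, while Tssk2 exceeded it without Cus-1 1 (0.75 against 0.65) and without busulfan 2 (1.62 against 1.47). It measured 12.4 and 14.4 FPKM in the busulfan libraries against 59.95 and 21.6 in the Cus-1 libraries, which is 4.47 and 1.61 times the busulfan mean. The log2 fold change was 1.37 (SE 0.48, limma adjusted p = 0.166). Tssk6 has 1 exon on chromosome 8 (69902184 to 69903518, plus strand), and 375 of its 1335 bases lie over exons of Ndufa13, a gene of respiratory complex I on the opposite strand. As a share of its 50-base words, 25.3% were in Ndufa13. Without strand information fragments from that stretch cannot be told apart, and the strand setting is not given in the sources used here. Ndufa13 measured 54.9 and 56.3 FPKM in the busulfan libraries against 55.6 and 56.7 in the Cus-1 libraries. Its 4 values were nearly level, with a log2 fold change of 0.01 (SE 0.14).

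Tssk3 measured 11.3 and 12.4 FPKM in the busulfan libraries against 44.8 and 17.2 in the Cus-1 libraries, with a log2 fold change of 1.17 (SE 0.45, limma adjusted p = 0.177). It has 2 exons on chromosome 4 (129489014 to 129491022, minus strand). Its busulfan libraries differed by 1.10-fold and its Cus-1 libraries by 2.60-fold.

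Tssk4, the kinase that acts on Odf2, set the groups apart least. It measured 5.41 and 11.2 FPKM in the busulfan libraries against 23.3 and 11.4 in the Cus-1 libraries, so Cus-1 2 was only 1.02 times busulfan 2. The log2 fold change was 0.97 (SE 0.46, limma adjusted p = 0.217). Without busulfan 1 it was 0.51, and without Cus-1 1 it was 0.49. Tssk4 lies on chromosome 14 (55650184 to 55652539, plus strand), with 7 annotated transcripts of up to 4 exons.

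Tssk5, a further family gene outside the chosen 6, was barely detected. Its values were 0.400 and 1.03 FPKM in the busulfan libraries against 1.28 and 0.670 in the Cus-1 libraries, and the groups overlapped. Its log2 fold change was 0.21 (SE 0.32, limma adjusted p = 0.667).

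**Figure D1:**
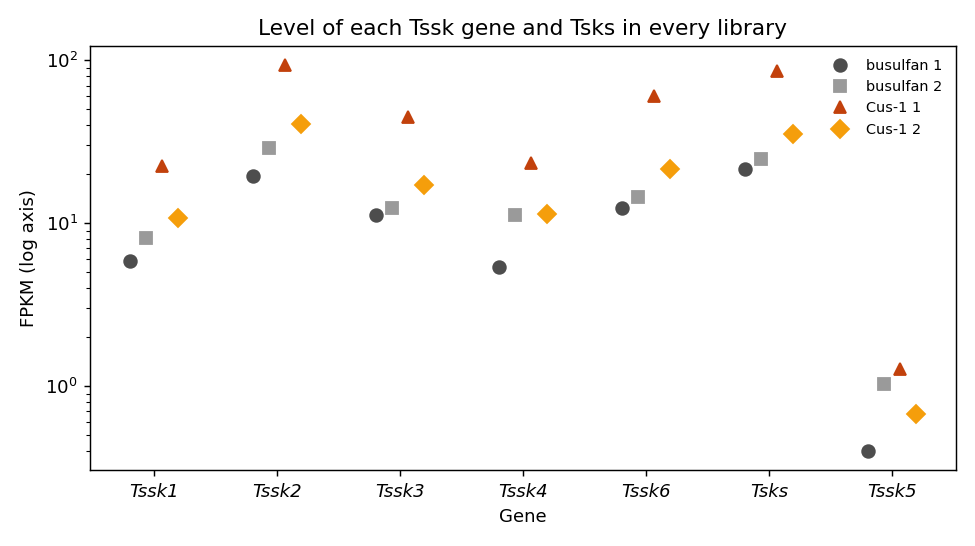
FPKM on a log axis of the 5 kinase genes, Tsks and Tssk5 in each of the 4 libraries, 1 point per library. For the first 6 genes both Cus-1 points lie above both busulfan points, Tssk4 by only 1.02-fold, and Cus-1 1 is the highest point throughout. Once libraries are centred on round spermatid genes, 0 of the 6 keep both Cus-1 points above both busulfan points, and the fold change turns below 0 for Tssk1, Tssk3 and Tssk4.

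The members differed more between the Cus-1 libraries than, except for Tssk4, between the busulfan libraries. Judged from the lowest values of the table, each library held some 12.7 to 14.0 M (1e+06) fragments. At that depth the fewest fragments behind a member would be 108, for Tssk1 in busulfan 1 at the RefSeq length, a counting error of 9.62% (counting error only). For Tsks the fewest would be 506, an error of 4.45%. The Cus-1 1 value was between 2.04 times (Tssk4) and 2.78 times (Tssk6) the Cus-1 2 value, while the busulfan libraries differed by 1.10-fold (Tssk3) to 2.07-fold (Tssk4). Leaving out Cus-1 1 lowered the median log2 fold change of the 6 from 1.19 to 0.58, and leaving out Cus-1 2 raised it to 1.84. Per gene, the values without Cus-1 1 ran from 0.49 for Tssk4 to 0.75 for Tssk2, and none passed the adjusted threshold (limma adjusted p 0.476 to 0.628). With 1 Cus-1 library left, that fit takes the spread from the busulfan libraries alone and assumes that the lone library varies like them.

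The 6 genes kept a similar order of level in all 4 libraries. Tssk2 and Tsks were the most abundant, followed by Tssk6, Tssk3 and then Tssk1 and Tssk4. The order within the first pair and within the last pair changed between libraries, with Tsks above Tssk2 and Tssk1 above Tssk4 in busulfan 1 only, and the place of Tssk1 rests on its uncertain length. Tssk6 stood above Tssk3 in each library, by a log2 ratio (Tssk3 to Tssk6) of -0.13 and -0.20 with busulfan and -0.41 and -0.31 with Cus-1. Tsks stood above Tssk6 in each library, with log2 ratios (Tssk6 to Tsks) of -0.75 and -0.75 against -0.51 and -0.68. Tssk2 supplied 25.6% and 29.0% of the summed FPKM of the 6 genes with busulfan and 28.3% and 29.7% with Cus-1, and Tsks 28.4% and 24.8% against 26.1% and 25.7%.

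With all 4 libraries, the ratios between members differed less between the groups than their levels did. Without busulfan 1 this did not hold for Tssk4. Its level then differed by 0.51, against a largest ratio difference of 0.76. Of the 15 pairs, 4 had ratios that did not overlap between the groups: Tssk1 to Tssk2 (difference of the log2 ratio -0.26), Tssk2 to Tssk4 (0.37), Tssk3 to Tssk6 (-0.20) and Tssk6 to Tsks (0.15). An exact two-sided permutation test of 2 libraries against 2 cannot go below p = 0.333, and after adjustment over the 15 pairs the smallest p was 0.909. The largest difference of any pair was 0.40 on the log2 scale, for Tssk4 to Tssk6 (-0.40), whose ratios overlapped between the groups. The largest difference over all pairs, not always of the same pair, came to 0.76 after dropping busulfan 1 and 0.38 after dropping busulfan 2. Dropping Cus-1 2 gave 0.63, while dropping Cus-1 1 gave 0.26. The log2 ratio of Tssk4 to Tssk6 was -1.07 in busulfan 1 and -0.34 in busulfan 2, against a Cus-1 mean of -1.10. The difference of this pair therefore rests on busulfan 2. A p at the smallest value the design allows does not show that the members acted alike.

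Germ cell markers had a group difference of similar size to that of the members, spermatid genes most of all. Both Cus-1 libraries were above both busulfan libraries, on the deposited values, for 16 of 16 elongating spermatid genes, 16 of 18 round spermatid genes and 18 of 18 spermatocyte genes, against 36.6% of all tested genes, with median log2 fold changes of 1.22, 1.13 and 0.91. The median log2 value of the elongating spermatid genes, such as Tnp1 and Prm1 of sperm chromatin, was 6.17 and 6.51 with busulfan and 8.29 and 6.85 with Cus-1, again with Cus-1 1 far above the rest. That of the round spermatid genes was 2.94 and 3.96 against 5.05 and 4.21, and that of the spermatocyte genes 4.57 and 5.35 against 5.99 and 5.73. Relative to the round spermatid list the median difference of the 6 genes between groups was 0.02 (-0.20 for Tssk4 to 0.19 for Tssk6), and relative to the elongating spermatid list it was -0.04 (-0.26 to 0.13). Only Tssk4 against the round list (lower) and Tssk6 against the elongating list (higher) had groups that did not overlap. Relative to the spermatocyte list it was 0.29 (0.07 to 0.46), all 6 overlapping between the groups. These medians depend on single libraries: without Cus-1 1 they were -0.17 against the round, 0.07 against the elongating and -0.19 against the spermatocyte list, and without busulfan 1 they were 0.42, 0.02 and 0.57. Without busulfan 2 they were -0.31, -0.03 and 0.08, and without Cus-1 2 they were 0.25, -0.11 and 0.81. Over the 18 combinations the smallest adjusted p was 1 in the exact two-sided permutation test, which cannot go below 0.333 before adjustment. In bulk tissue, fewer cells of a type and less RNA per cell cannot be told apart.

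**Figure D2:**
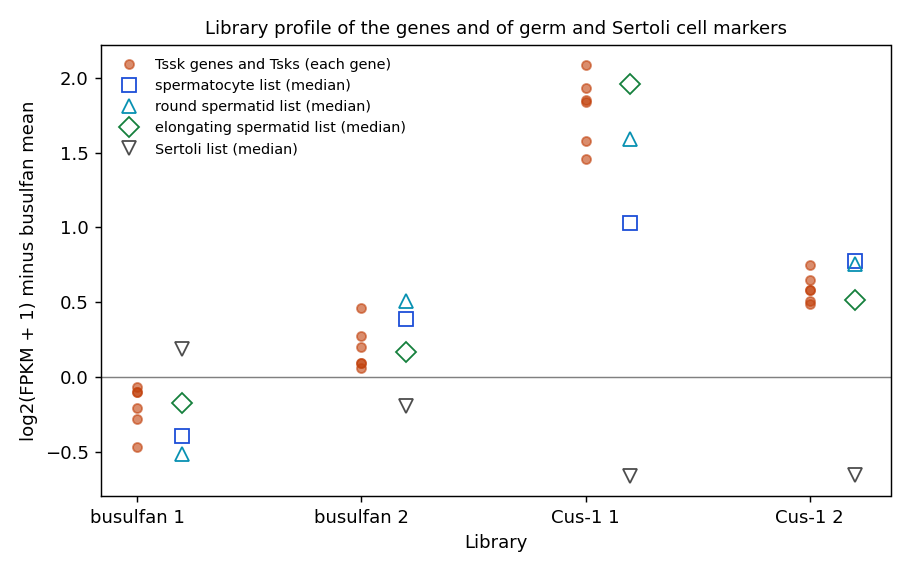
log2(FPKM + 1) minus the mean of the busulfan libraries, per library, for each of the 6 genes (filled circles) and for the median of the spermatocyte, round spermatid, elongating spermatid and Sertoli lists (open symbols). The elongating spermatid median lies among the 6 genes in Cus-1 1 and Cus-1 2. The spermatocyte median lies below them in Cus-1 1 and above them in Cus-1 2. The round spermatid median lies among them in Cus-1 1 and just above them in Cus-1 2.

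Markers of other testis cells had lower values in the Cus-1 libraries as deposited. Summed over 20 Sertoli genes the FPKM was 8082 and 6196 with busulfan and 3911 and 4867 with Cus-1, and 18 of the 19 tested were lower in both Cus-1 libraries, against 31.7% of all tested genes. Over 10 Leydig genes the sum was 29368 and 28571 against 14434 and 21231, with 7 of 10 lower in both, and most of it came from Insl3. Without Insl3 the other 9 genes summed to 6420 and 8094 against 4170 and 6630, so that Cus-1 2 lay between the busulfan libraries. The sum over 10 macrophage genes was 874 and 685 against 387 and 563, with 8 of 10 lower in both. For the 8 of 11 genes of epididymis and blood that had values, the sum was 583 and 312 against 296 and 265, mostly from haemoglobin genes. Among the epididymal genes, Crisp1 reached at most 0.27 FPKM and Adam28 at most 0.04. Rnase10 measured 1.68 and 3.03 FPKM with busulfan against 2.80 and 2.62 with Cus-1, and its groups overlapped. Lcn5, Lcn8 and Spink12 had no values under these symbols and were not analysed here. Of 11 peritubular and 7 endothelial genes, 6 each were lower in both Cus-1 libraries, with median log2 fold changes of -0.59 and -0.48. The other 5 peritubular genes, Myl9, Acta2, Tagln, Myh11 and Cnn1, overlapped between the groups. Summed over the peritubular genes the FPKM was 900 and 569 with busulfan against 427 and 594 with Cus-1, so Cus-1 2 lay between the busulfan libraries. Centring libraries on the Sertoli list moved the median of all genes from 0.04 to 0.70, and centring on the round spermatid list moved it to -1.13. The members' median was 1.85 and 0.02 on these scales. Centring shifts all genes of a library alike, so it cannot change how far the members' median lies from that of all genes. The part of cell mixture in the members' values was not tested.

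Most partners and substrates of these kinases had higher values in the Cus-1 libraries as deposited. Among 11 genes, both Cus-1 libraries were above both busulfan libraries for 7 and below for 3 (36.6% and 31.7% of all tested genes), with a median log2 fold change of 0.75 (-0.42 on values centred on round spermatid genes), and none passed the adjusted threshold. At an unadjusted limma p under 0.05, 6 were higher and 1, Hspa8, lower, against 18.03% and 9.96% of all tested genes. Tsacc, the co-chaperone of Tssk6, measured 56.0 and 98.4 FPKM in the busulfan libraries against 168 and 137 in the Cus-1 libraries (log2 fold change 1.02, SE 0.30). Odf2, the tail substrate of Tssk4, was at 406 and 523 against 1135 and 701 (0.95, SE 0.30), and the axonemal gene Spag16, whose product binds Tssk2, was at 1.03 (SE 0.22). Hsp90aa1, the inducible HSP90, measured 431 and 600 FPKM in the busulfan libraries against 939 and 827 in the Cus-1 libraries (0.79, SE 0.23). Its constitutive relative Hsp90ab1 went the other way, at 534 and 470 against 381 and 423.5 (-0.32, SE 0.17).

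Among the remaining partners, the chaperone pair Hspa2 and Hspa8 also went opposite ways. Hspa2, the germ cell HSP70, was at a log2 fold change of 0.94 (SE 0.25) and Hspa8, the constitutive one, -0.64 (SE 0.18). Ppp1cc, whose testis form is a phosphatase bound by Tsks, was at 0.57 (SE 0.18). Pdpk1 measured 16.2 and 17.6 FPKM in the busulfan libraries against 39.4 and 21.3 in the Cus-1 libraries (0.75, SE 0.31), with Cus-1 1 highest, as for the kinases. H2ax, a histone whose phosphorylation has been tied to Tssk6, overlapped between the groups (0.10, SE 0.16), and Creb1, a cAMP-responsive transcription factor, was at -0.27 (SE 0.18).

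Genes of the chromatoid body, the RNA granule of spermatids where Tssk1, Tssk2 and Tsks are found, were higher in both Cus-1 libraries in 12 of 12 cases, against 36.6% of all tested genes. Their median log2 fold change was 0.86, or 0.57 without busulfan 1 and -0.31 on values centred on round spermatid genes, and as deposited all 12 lay between 0.56 and 1.40. At an unadjusted limma p under 0.05, 10 of them were higher, against 18.03% of all tested genes, and none passed the adjusted threshold. The most abundant were Mael at 0.90 (SE 0.23), Tdrd6 at 0.72 (SE 0.19) and Ddx4 at 0.92 (SE 0.27). The highest was Kif17, a kinesin, at 6.32 and 8.01 FPKM in the busulfan libraries against 31.7 and 13.1 in the Cus-1 libraries, named after its values were seen. It had the same order of libraries as the kinases.

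Kinases of other families were described from 2 lists. For 14 kinase genes with roles in germ cells, 11 had both Cus-1 libraries above and 1 had them below the busulfan libraries (36.6% and 31.7% of all tested genes), with a median log2 fold change of 0.83. That median was 0.46 without Cus-1 1 and 0.51 without busulfan 1. On values centred on Sertoli and on round spermatid genes it was 1.48 and -0.35. The abundant Stk33, needed for sperm tail shape, measured 57.2 and 85.1 FPKM in the busulfan libraries against 141 and 118 in the Cus-1 libraries (0.88, SE 0.24). Csnk2a2, the casein kinase 2 subunit needed for normal sperm heads, was at 0.45 (SE 0.17), and Prkaca, the catalytic subunit of protein kinase A, was at 0.01 (SE 0.14). The 1 lower gene, Cdk16, named after its values were seen, was at -0.57 (SE 0.15). AMPK-related kinases belong to the same CAMK group of kinases as the Tssk family. They had a median of -0.09 over 16 genes, with 7 apart upwards and 8 apart downwards (36.6% and 31.7% of all tested genes). On values centred on Sertoli and on round spermatid genes their median was 0.57 and -1.26. At an unadjusted limma p under 0.05, 8 of the 14 germ cell kinases were higher and 1 lower, and 3 of the 16 AMPK-related kinases were higher and 1 lower, where all tested genes gave 18.03% and 9.96%. The AMPK-related counts at that unadjusted p are near those shares. The lists were not tested against each other, and no gene of either passed the adjusted threshold. Stk11, their upstream kinase, was at -0.12 (SE 0.14), Mark2 at 0.58 (SE 0.16) and Mark4 at -0.59 (SE 0.19).

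**Figure D3:**
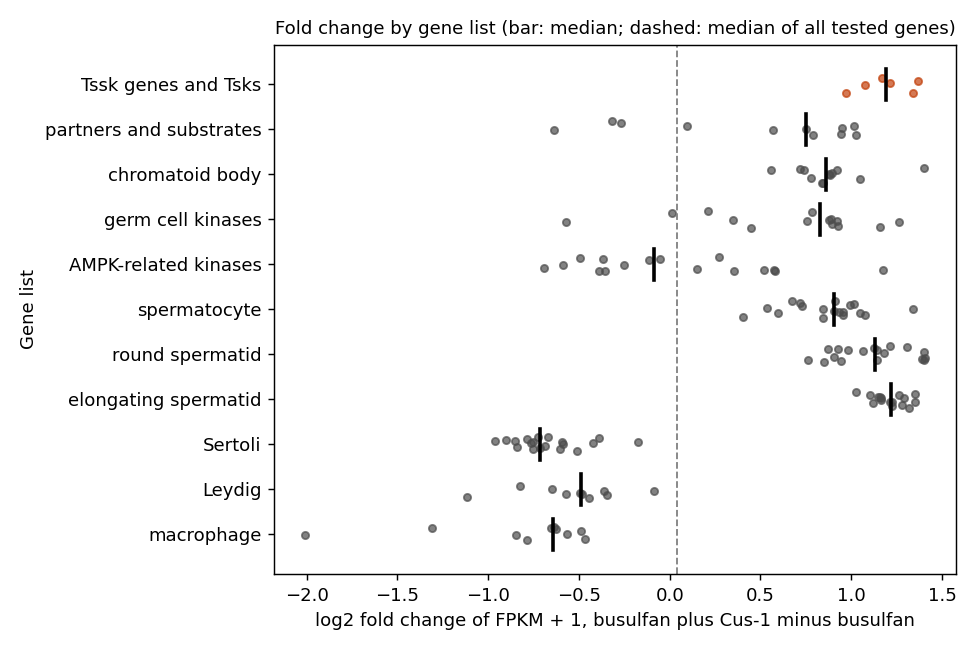
log2 fold change of each tested gene (points) in the 6 genes and in 10 lists, with the median of each as a bar and the median of all tested genes, 0.04, as a dashed line. The 6 genes lie between 0.97 and 1.37, within the spread of the round spermatid list, and AMPK-related kinases lie on both sides of 0. Values are as deposited, and centring on round spermatid genes turns Tssk1, Tssk3 and Tssk4 to below 0.

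The genes next to the members mostly lay nearer to 0. Of 13 annotated neighbours or overlapping genes, 10 were tested, with a median log2 fold change of 0.13. Dgcr2, whose gene spans Tssk1 on the opposite strand and shares 63 exonic bases with it, measured 25.02 and 27.2 FPKM in the busulfan libraries against 32.8 and 27.5 in the Cus-1 libraries (0.20, SE 0.17). Ess2, beyond Tssk2, was at 0.06 (SE 0.18), and Bsdc1, beyond the end of Tssk3, at 0.05 (SE 0.16). Gatad2a, after Tssk6, was at -0.05 (SE 0.17).

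The neighbours farthest above 0 lay beside Tssk3 and Tsks. Fam229a, which begins 167 bases from the GENCODE start of Tssk3 and points the other way, measured 19.3 and 24.0 FPKM in the busulfan libraries against 60.02 and 28.1 in the Cus-1 libraries. Its log2 fold change was 0.91 (SE 0.38, limma adjusted p = 0.191), with the same order of libraries as Tssk3. In RefSeq, Tssk3 begins at 129491730, so its span runs over part of Fam229a (129491190 to 129491956). Whether Tssk3 and Fam229a share fragments was not tested. Cpt1c, which lies 1336 bases after Tsks on the opposite strand, measured 9.45 and 14.0 FPKM in the busulfan libraries against 23.7 and 18.5 in the Cus-1 libraries (0.81, SE 0.25, adjusted p = 0.154). On the other side of Tsks, Ap2a1 measured 41.0 and 48.5 FPKM in the busulfan libraries against 75.3 and 50.3 in the Cus-1 libraries (0.46, SE 0.24). Yjefn3, which overlaps Tssk6, was at 0.29 (SE 0.49) with overlapping groups, and Gm49747, before Tssk4, was at -0.31 (SE 0.23). RefSeq starts Tssk4 at 55643651, within Gm49747 (55643604 to 55646352). It starts Tsks at 44929472, within Ap2a1 (44900373 to 44929496).

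**Figure D4:**
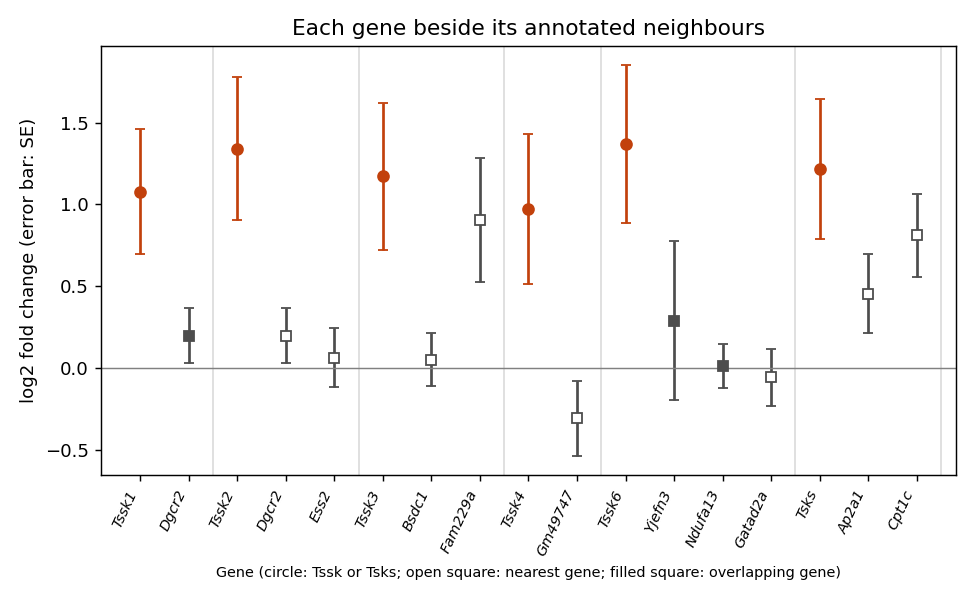
log2 fold change with its SE for each of the 6 genes (circles) and for the tested genes nearest to it (open squares) or overlapping it (filled squares), each gene's set divided by vertical lines. Nearest and overlapping genes are by GENCODE M21 positions. Ndufa13, Dgcr2, Ess2, Bsdc1 and Gatad2a lie between -0.05 and 0.20, Fam229a and Cpt1c at 0.91 and 0.81, Ap2a1 at 0.46, Yjefn3 at 0.29 and Gm49747 at -0.31. Values are as deposited, and centring on round spermatid genes turns Tssk1, Tssk3 and Tssk4 to below 0.

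The genes with the most similar profile over the 4 libraries were sought among 9383 tested genes at a mean of 10 FPKM or more. Likeness was the root mean square difference from the members' mean profile in log2 units, each profile centred on its own mean. The nearest 5 were Fam243 (0.0146), Klhl10 (0.0157), BB014433 (0.0279), 1700012B07Rik (0.0293) and Tmco2 (0.0302). Klhl10, a spermatid gene whose product is part of a ubiquitin ligase, measured 14.9 and 19.4 FPKM in the busulfan libraries against 61.4 and 26.2 in the Cus-1 libraries. The members themselves lay between 0.0780 (Tsks) and 0.230 (Tssk4) from their mean, and 86 other genes lay nearer to it than the median member did. With 4 libraries, of which 1 stands apart, such likeness is a description only.

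**Figure D5:**
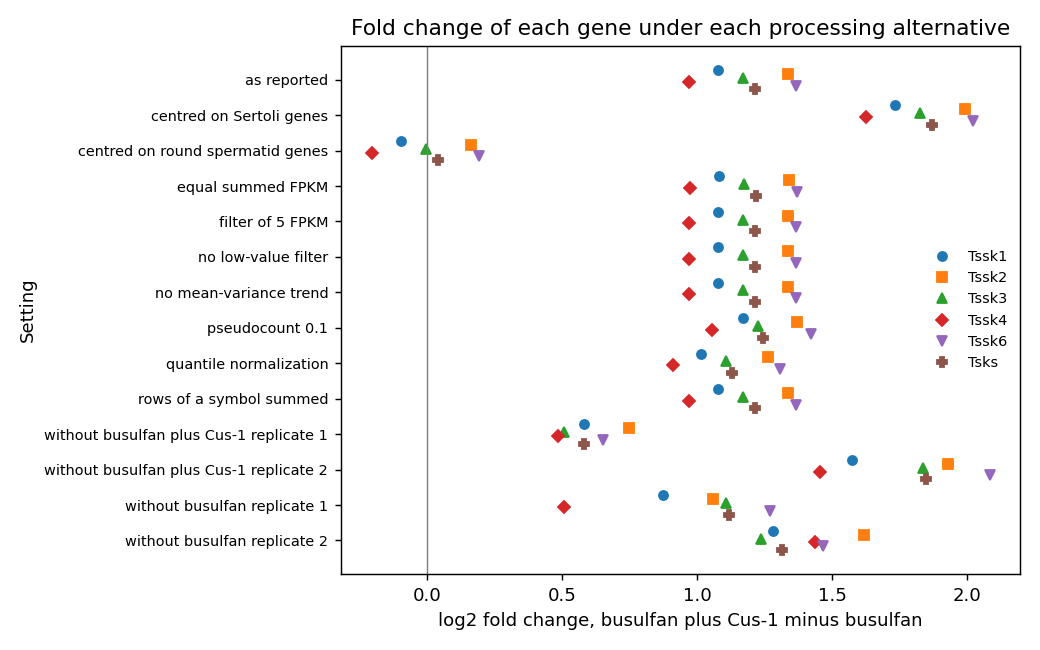
log2 fold change of each of the 6 genes as reported and under 13 processing alternatives, 1 symbol per gene. Values stay above 0 except for Tssk1, Tssk3 and Tssk4 on values centred on round spermatid genes, and they lie lowest among the other settings without Cus-1 1 (written as busulfan plus Cus-1 replicate 1).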

How the data were processed

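RNA-seq of mouse testis gave 2 busulfan and 2 busulfan plus Cus-1 libraries, grouped by source label and numbered in order of submission. The authors deposited 1 table of FPKM per gene and library, and the submitters' processing notes name the build mm10. Which aligner, counter, annotation and strand setting were used is not given in the sources used here. Of 45536 rows with values, 910 without a gene name (0.641% to 0.688% of summed FPKM) were left out. For 115 symbols on several rows the row with the highest mean was used.

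Genes at 1 FPKM or more in 2 libraries were tested with limma 3.58.1 (R 4.3.3, mean-variance trend, two-sided) on log2(FPKM + 1). The p-values were adjusted by Benjamini-Hochberg across the 19837 tested genes, and 0.05 was the threshold. The script was tested on simulated data. Ratios between members were tested with exact permutations over libraries. Depth was estimated from the first peak of FPKM times length over genes with 1 transcript of 300 to 2000 bases.

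The members and lists were chosen with earlier results of these data known. Named genes were the members, Tssk5, the 3 most abundant genes of each list, partners and substrates, annotated neighbours and the 5 genes nearest in profile. The symbol H2ax was used for H2afx. GENCODE M21 held 83.4% of the tested symbols. Alternatives were other pseudocounts, filters, scalings and duplicate handling, limma without trend, and leaving out each library.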

Additional observations from a re-analysis of the deposited data

How the results depend on the processing

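Under the 13 alternatives run, 75 of 78 log2 fold changes of the 6 genes stayed positive. The 3 that reversed were Tssk1 (-0.10), Tssk3 (-0.0036) and Tssk4 (-0.20), all on values centred on round spermatid genes, where the members' median was 0.0188 and 0 of the 6 were higher in every Cus-1 library. Adjusted limma p was below 0.05 for all 6 only when libraries were centred on Sertoli genes (0.0256 to 0.0351). That scaling called 5969 genes higher and 39 lower, with 8882 and 69 at an unadjusted p under 0.05, and put the median of all genes at 0.70. Centring on round spermatid genes called 2 higher and 34 lower, with 21 and 3650 unadjusted and a median of -1.13. The median of all genes was -0.0056 with a filter of 5 FPKM and -0.0613 with quantile normalization. 

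List medians on values centred on Sertoli and on round spermatid genes were 0.57 and -1.26 for AMPK-related kinases, 1.52 and -0.31 for the chromatoid body, 1.48 and -0.35 for germ cell kinases, and 1.41 and -0.42 for partners and substrates. Leaving out 1 library each gave 0 to 2 genes called higher and 0 to 5 lower (2 and 5 without Cus-1 1, where the spread comes from the busulfan libraries alone), and 1159 to 3821 higher and 426 to 1996 lower at an unadjusted p. The members' median then ran from 0.58 to 1.84, their median difference to the elongating spermatid list from -0.11 to 0.0695, and the medians of germ cell kinases from 0.46 to 0.94 and of partners and substrates from 0.51 to 0.88. Except where the scaling's own construction shifts all genes, the cause was not tested. No paired analysis was possible because the labels give no replicate numbers that the groups share. With 2 libraries a group, 1 library decides the size of each member's difference, and depth is an estimate.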
